A study of Rattus norvegicus with 30 samples.

Results

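The comparison described here is between hearts of rats fed a high-sucrose diet and hearts of rats fed chow, after both had been perfused with a buffer containing glucose. The samples were taken by their titles: 5 arrays of the sucrose group and 5 of the chow group, 10 of the 30 arrays in the series. All animals were male Sprague Dawley rats aged 16 to 18 weeks, and the tissue was left ventricle. The control rats ate LabDiet Laboratory Rodent diet 5001, and the others ate the high-sucrose Research Diets D11725 for 8 to 10 weeks, a feeding that per the labels makes rats insulin resistant. All rats were anesthetized with chloral hydrate, and their hearts were cooled in ice-cold Krebs-Henseleit buffer. The 10 hearts then worked ex vivo for 60 min at a filling pressure of 15 cm H2O and an afterload of 100 cm H2O. Glucose was present in the buffer at 25 mmol/L. Calcium was at 2.5 mmol/L, the ketone bodies acetoacetate and hydroxybutyrate at 1 and 10 mmol/L, and propionate at 2 mmol/L. The buffer recipe in the labels lists neither insulin nor a long-chain fatty acid, and both diets met the same buffer, so the comparison asks what the preceding diet left in the transcripts of a heart that had then worked for 60 min on high glucose. The remaining 20 hearts, not perfused or perfused with 25 mmol/L mannitol as the osmotic control, were used to estimate the spread and to see the diet difference in other animals.

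The heart takes most of its energy from fatty acids, and it uses more glucose when insulin is high or when fatty acids are scarce. Fatty acids switch on the genes of their own uptake and oxidation through the nuclear receptor PPARalpha, while glucose acts on transcription through MondoA and ChREBP, whose best known target is Txnip, an inhibitor of thioredoxin and of glucose uptake. Insulin signals through its receptor and the substrates Irs1 and Irs2 to the kinase Akt, and insulin-resistant tissue responds weakly. In a heart that is excised and reperfused, immediate-early genes such as Fos and Atf3, which are transcribed within minutes of a stress, and metallothioneins, small proteins that bind zinc and copper, are typical responders.

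Cardiomyocyte markers were well above background in these ventricles: all 11 that were tested (12 were listed) exceeded background on 10 of 10 arrays, Myh6, Tnnt2 and Ryr2 among them. Their summed level, in units of each array's 75th percentile, ran from 3460 to 5087 in the chow group and from 3829 to 4650 in the sucrose group. Between 52.3% and 73.3% of probes were well above background on the chow arrays and between 59.4% and 74.6% on the sucrose arrays. The mean difference was 2.84 percentage points (two-sided exact permutation test over 252 arrangements, p = 0.5952). That test did not take the slides into account. The 10 arrays lay on 4 slides, each of which held both diets: chow replicates 1 and 5 with sucrose replicate 4, chow 2 with sucrose 1 and 5, chow 3 with sucrose 2, and chow 4 with sucrose 3. Within every slide the share of probes well above background was higher on the sucrose arrays. In the same order it was 74.6% against 71.3% and 73.3% in chow, 67.7% and 70.9% against 63%, 61.4% against 59.9%, and 59.4% against 52.3%. The position of the arrays on the slide was less balanced. Column 2 held 4 chow arrays, column 3 held 1 chow and 3 sucrose arrays, and column 4 held 2 sucrose arrays, so column and diet cannot be fully told apart. The labels call the arrays of a group biological replicates, and 5 arrays a group limit the precision. In whole tissue, fewer cells of a type and less RNA per cell cannot be told apart.

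No gene differed between the diets after adjustment. Of 18333 genes tested with limma, 0 (0%) had a Benjamini-Hochberg adjusted p under 0.05 in the glucose-perfused hearts, and the lowest adjusted p was 0.5741, shared by 10 genes. At an unadjusted p under 0.05 there were 804 genes (4.39%), of which 451 (2.46%) were higher in the sucrose group and 353 (1.93%) lower. Equal numbers of genes in every bin of 0.05 would put 917 in the lowest bin, and the lowest bin of the plot of p-values held fewer than that. This fit has no term for slide. With slide as a fixed or a random block, the lowest bin held 1342 or 1180 genes, above 917, and again 0 genes were called. Arrays of the same slide deviated together, at a mean correlation of 0.25 against -0.08 for arrays of different slides. The median log2 difference, sucrose minus chow, was 0.01, and the middle 50% of genes lay between -0.09 and 0.10. A total of 8837 genes (48.2%) were below 0.

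**Figure D1:**
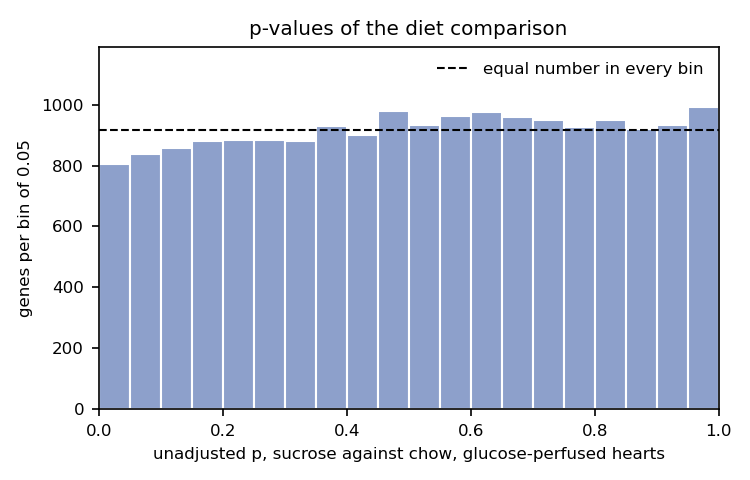
Number of genes (vertical axis) in each bin of 0.05 of the unadjusted limma p-value (horizontal axis) for sucrose against chow in glucose-perfused hearts, over 18333 genes, in the fit without a slide term. The dashed line marks equal numbers in every bin (917); the lowest bin holds 804 genes and does not rise above the line.

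The measurements set bounds on how large a diet difference in signal could have been, in the fit without a slide term. The median 95% interval of a gene's difference reached 0.30 to either side on the log2 scale, which is a factor of 1.23. For 16450 genes (89.7%) the whole interval lay within a 2-fold difference in either direction, and for 12620 genes (68.8%) it lay within 1.5-fold. These shares are over all 18333 genes, of which 15610 were well above background on 4 or more arrays of both glucose groups. Near background an interval bounds the signal rather than the transcript. Only 71 genes had a measured difference of more than 1 on the log2 scale, and 39 of these had an unadjusted p under 0.05. The arrays of both diets did not overlap for 149 genes (0.813%), 87 of them higher and 62 lower in the sucrose group. The difference had the same sign within all 4 slides for 2864 genes (15.6%). These shares are the background against which the genes named in what follows should be read, since every one of them failed the adjusted test.

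Most genes of glucose sensing and glucose use lay close to 0. Txnip was at 4.26, 4.26, 3.75, 4.06 and 4.14 on the chow arrays and at 4.22, 4.18, 3.46, 4.19 and 4.40 on the sucrose arrays, on a log2 scale where an array's 75th percentile is 0. The 2 groups of values overlapped almost completely, with a difference of -0.01 (95% interval -0.40 to 0.39). Mlxipl, which encodes ChREBP, differed by 0.11 (-0.24 to 0.46). Of the 14 tested genes that respond to carbohydrate through ChREBP or MondoA, 9 were below 0 (64.3% against 48.2% of all genes) with a median of -0.02. Their median was 0.05 in the authors' deposited values, where the median over all genes was 0.09. Slc2a4, the insulin-responsive glucose transporter GLUT4, ran from 4.34 to 4.53 in chow and from 4.44 to 4.64 in sucrose hearts, a difference of 0.08 whose interval (-0.08 to 0.24) excludes a change as large as 1.5-fold. Hexokinase 2 (Hk2) differed by -0.06 (-0.30 to 0.18) and the basal transporter Slc2a1 by 0.15 (-0.19 to 0.50). Ldha, the muscle form of lactate dehydrogenase, was at 0.18 (-0.01 to 0.36). Of 29 glycolysis and glucose uptake genes, 15 were above 0 and 14 below, the median was 0.01, and 0 had an unadjusted p under 0.05.

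Hk1, the other main hexokinase of the heart, did separate the arrays, although by little. It read 3.34, 3.08, 3.10, 3.36 and 3.38 in chow and 3.41, 3.47, 3.43, 3.38 and 3.57 in sucrose hearts, a difference of 0.20 (SE 0.11, unadjusted p = 0.0721). The gap between the groups was smaller than the range within chow. Pdk4, a kinase that shuts pyruvate out of oxidation by inactivating pyruvate dehydrogenase, ran from -0.40 to 0.28 in chow and from -1.38 to -0.14 in sucrose hearts, and the groups overlapped. Its difference was -0.44 (-0.92 to 0.03), and sucrose replicate 3 was the lowest array. The 13 tested genes of the pyruvate dehydrogenase complex had a median of 0.00, with 7 below 0. Ogt, which attaches the sugar O-GlcNAc to proteins, differed by 0.22 (unadjusted p = 0.0374) and Phkg1, a catalytic subunit of phosphorylase kinase, by 0.74 (unadjusted p = 0.0197). Of the 9 hexosamine genes, 5 were above 0, and of the 18 glycogen genes, 4 were.

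Insulin signalling genes were also close between the diets. Insr, the insulin receptor, differed by 0.11 (-0.11 to 0.32), Irs1 by 0.24 (-0.11 to 0.58) and Irs2 by -0.29 (-0.80 to 0.22). On 4 of the sucrose arrays Irs2 lay between 2.46 and 3.09, around the 2.68 to 2.99 of the chow arrays, and sucrose replicate 3 was at 1.29. Klf15, a transcription factor that restrains insulin-driven lipid synthesis, was at 0.07 (-0.12 to 0.27). Pik3r1, the regulatory subunit of the insulin-activated lipid kinase, was the one member of the list with an unadjusted p under 0.05. It read 0.05, 0.33, -0.01, 0.20 and 0.16 in chow and -0.03, -0.12, -0.05, -0.17 and -0.34 in sucrose hearts. The groups did not overlap and the difference was -0.29 (SE 0.11, unadjusted p = 0.0114, limma adjusted p = 0.9994). Of the 29 tested genes of the list, 15 were below 0 and the median was 0.00.

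**Figure D2:**
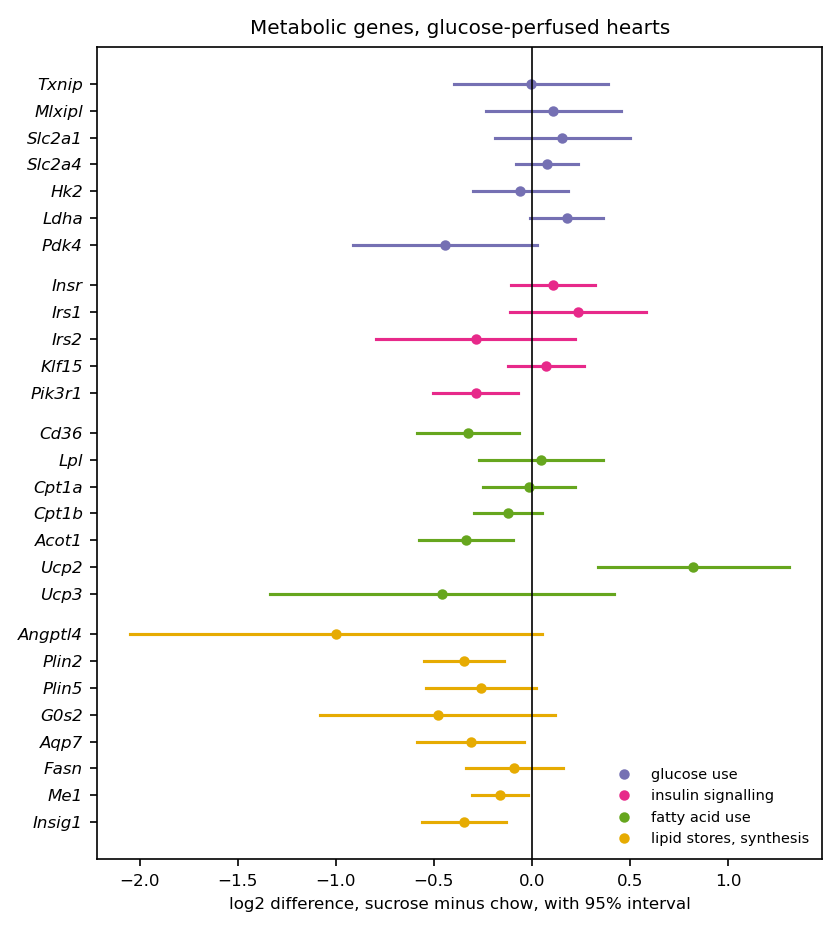
Log2 difference, sucrose minus chow, in glucose-perfused hearts (horizontal axis) for genes of glucose use, insulin signalling, fatty acid use, and lipid stores and synthesis; points are limma estimates and bars their 95% intervals, from 5 arrays a group. Most genes of glucose use lie around 0, but Pdk4 lies at -0.44. Acot1, Cd36 and Plin2 lie below 0, Angptl4 lies lowest at -1.0 and Ucp2 lies at 0.82. No gene passed the adjusted test.

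Genes of fatty acid uptake and oxidation lay slightly but widely below 0. Of 40 tested members (41 listed), 35 were below 0, or 87.5% against 48.2% of all genes, and the median difference was -0.10 against 0.01. Averaged over the list, the deviation from the chow mean ran from -0.02 to 0.03 on the chow arrays and from -0.20 to -0.05 on the sucrose arrays, without overlap. Within the 4 slides it was -0.12, -0.05, -0.12 and -0.21. By other measures the arrays of this list did overlap. Its summed level ran from 1509 to 1697 in chow and from 1460 to 1606 in sucrose hearts. The median deviation over its members was -0.07 in chow replicate 5 and -0.05 in sucrose replicate 5. These genes share regulators and are not independent, and 0 of them were called. With an unadjusted p under 0.05 there were 4 lower members, Acot1, Cd36 and Eci1 among them, and 1 higher member, Ucp2. Over all genes 1.93% were lower and 2.46% higher at that threshold. The list's median was -0.12 in mannitol-perfused and -0.08 in non-perfused hearts.

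Acot1, a cytosolic thioesterase that releases fatty acids from coenzyme A and is a classical PPARalpha target, read -0.07, -0.17, -0.06, -0.21 and -0.27 in chow hearts. In sucrose hearts it read -0.45, -0.49, -0.55, -0.66 and -0.31. All sucrose arrays were below all chow arrays, and the difference was -0.34 (SE 0.12, unadjusted p = 0.0077). Cd36, the main fatty acid transporter of the cardiomyocyte, ran from 6.47 to 6.87 in chow and from 5.97 to 6.71 in sucrose hearts, where replicates 3 and 5 were low. Its difference was -0.33 (SE 0.13, unadjusted p = 0.0160), and a second probe gave -0.25. Of carnitine palmitoyltransferase, the entry step of mitochondrial oxidation, the muscle form Cpt1b was at -0.12 (-0.30 to 0.05), with -0.18 by a second probe, and Cpt1a at -0.02 (-0.25 to 0.22). Ucp3 was at -0.46 with an interval from -1.34 to 0.42.

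Ucp2, an uncoupling protein of the inner mitochondrial membrane, was the exception in direction. It read -0.31, 0.26, 0.36, 0.46 and 0.24 in chow and 1.37, 1.05, 1.01, 0.85 and 0.84 in sucrose hearts. All sucrose arrays exceeded all chow arrays, by 0.82 on average (95% interval 0.33 to 1.31, 1.77-fold, unadjusted p = 0.0018, limma adjusted p = 0.9994). Within the 4 slides the difference was 0.88, 0.85, 0.69 and 0.56. The mannitol-perfused hearts, which are other animals, differed by 1.0 (limma, unadjusted p = 0.00027) and the non-perfused hearts by 0.05 (limma, unadjusted p = 0.84). The chow arrays without perfusion ran from 0.08 to 1.56 and the sucrose arrays from 0.63 to 1.48. The diet difference with glucose exceeded that without perfusion by 0.78 (unadjusted p = 0.0291), an interaction that did not pass adjustment (limma adjusted p = 0.9996).

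Genes of lipid storage leaned the same way as those of oxidation, with 16 of 24 tested genes of triglyceride turnover and lipid droplets below 0 (66.7%) and a median of -0.08. Plin2, the general coat protein of lipid droplets, read 2.26, 2.23, 2.26, 2.73 and 2.43 in chow and 2.21, 2.03, 1.73, 2.12 and 2.08 in sucrose hearts. The groups did not overlap, the difference was -0.35 (SE 0.10, unadjusted p = 0.0017), and within the 4 slides it was -0.22, -0.09, -0.23 and -1.0. In the mannitol and non-perfused hearts Plin2 differed by -0.04 and -0.06. Plin5, the droplet coat of oxidative muscle, which was named after its value was seen, was at -0.26 (-0.54 to 0.02). Aqp7, a glycerol channel, was at -0.31 (unadjusted p = 0.0255) and -0.13 with array column as a covariate. Of 9 tested adipocyte markers 4 were below 0, the median was 0.00, and their summed level ran from 99.8 to 120.0 in chow and from 96.5 to 114.3 in sucrose hearts. Adipoq, Pck1 and Ucp1 were above background on 0 of the 10 arrays, Lep on 2, Retn on 6, and Cfd, Cidea, Fabp4, Pparg and Lipe on all 10. The part of adipocytes in these lipid results was not tested.

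Angptl4, a secreted inhibitor of lipoprotein lipase that both fatty acids and glucocorticoids induce, had one of the larger differences and a wide interval. It read 4.12, 3.37, 4.17, 4.64 and 4.17 in chow and 3.68, 3.16, 2.56, 3.04 and 3.02 in sucrose hearts. Only chow replicate 2 fell among the sucrose values. The difference was -1.0 (95% interval -2.05 to 0.05, unadjusted p = 0.0609), and it was -1.36 in mannitol-perfused hearts but 0.05 without perfusion. That interval rests on the spread in all 6 groups, not in the glucose hearts alone. Angptl4 ran from -1.15 to 0.90 in non-perfused chow hearts and from 0.70 to 3.75 in mannitol-perfused sucrose hearts. Under the alternative settings its limma unadjusted p ran from 0.0023 to 0.2282. Lpl, the lipase itself, differed by 0.05 (-0.27 to 0.36). G0s2, an inhibitor of the main triglyceride lipase, was at -0.48 (-1.08 to 0.12).

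Lipid synthesis genes, which sucrose is known to induce in liver, were not higher in these hearts. Fasn, fatty acid synthase, was at -0.09 (-0.34 to 0.16), although its sign depended on the processing, as it was 0.14 after normexp background correction, 0.27 in the authors' deposited values and 0.13 with array column as a covariate. Of 15 tested genes of fatty acid synthesis and desaturation, 11 were below 0, with a median of -0.07 that became 0.05 in the authors' values. The one member that passed 0.05 without adjustment was Me1, malic enzyme, at -0.16 (limma, unadjusted p = 0.0275). Scd, the desaturase, lay near background and its interval ran from -1.07 to 0.99. In sterol metabolism, Insig1, which holds back the SREBP transcription factors, read 1.86, 1.75, 2.15, 1.78 and 1.94 in chow and 1.73, 1.67, 1.25, 1.73 and 1.37 in sucrose hearts. Its groups did not overlap and it differed by -0.35 (SE 0.10, unadjusted p = 0.0026). Of the 22 tested genes of cholesterol synthesis and SREBP2 targets, 14 were below 0 (63.6%), but 6 in the authors' values. In the authors' values the median over all genes was 0.09, against 0.01 in the processing used here, so those list values have another baseline.

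Metallothioneins were lower in the sucrose group by a similar amount in all 3 states, and they did not pass the test in the glucose-perfused hearts alone. Mt1 read 5.44, 5.29, 5.95, 5.77 and 5.82 in chow and 4.83, 4.67, 4.37, 5.19 and 5.30 in sucrose hearts of the glucose groups. The sucrose values were lower except that the highest of them, 5.30, just exceeded the lowest chow value. The difference was -0.78 (95% interval -1.21 to -0.35, 1.72-fold, unadjusted p = 0.0009, limma adjusted p = 0.9994). Mt2A read 3.31, 3.42, 3.92, 4.37 and 3.87 in chow and 3.07, 2.55, 2.78, 3.21 and 3.27 in sucrose hearts, where all arrays were below those of chow. It differed by -0.80 (-1.30 to -0.31, unadjusted p = 0.0027), and a second probe gave -0.97. Within the 4 slides the difference was -0.44, -0.22, -1.27 and -1.40 for Mt1 and -0.38, -0.25, -1.37 and -1.59 for Mt2A. The coding sequences of metallothioneins are similar, so the probes may not separate them fully.

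The other 20 hearts gave a similar size. Without perfusion Mt1 ran from 3.37 to 4.18 in chow and from 2.64 to 3.60 in sucrose hearts, and with mannitol from 4.91 to 5.81 and from 4.28 to 5.04. The diet difference was -0.68 and -0.70, and that of Mt2A was -0.65 and -0.62. The level itself was higher in the perfused hearts of both diets. The diet difference with glucose did not exceed that of the other states for Mt1 (interactions of -0.08 against mannitol and -0.10 against no perfusion, limma adjusted p of 0.9980 and 0.9996). Averaged over the 3 states, a comparison added after these values were seen, Mt1 differed by -0.72 (SE 0.12) and was the 1 gene of 18333 called (limma adjusted p = 0.0454). That call depended on the settings. Under quantile normalization, without the expression filter, in the authors' deposited values, with a replicate block and with array column as a covariate, 0 genes were called, and leaving out any one of 7 of the 10 glucose arrays also ended every call.

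Since Mt1 and Mt2A lie close together and shared a direction, their promoters are shown. These are the 250 bases upstream of each start in the RefSeq annotation of GRCr8, on the minus strand of chromosome 19, at chr19:10832976-10833225 for Mt1 and chr19:10838709-10838958 for Mt2A. The arrays were designed on another build. Capitals mark the core of the metal response element, the letters to which the zinc-sensing factor Mtf1 binds, searched as TGCACNC or TGCGCNC on both strands.
Mt1: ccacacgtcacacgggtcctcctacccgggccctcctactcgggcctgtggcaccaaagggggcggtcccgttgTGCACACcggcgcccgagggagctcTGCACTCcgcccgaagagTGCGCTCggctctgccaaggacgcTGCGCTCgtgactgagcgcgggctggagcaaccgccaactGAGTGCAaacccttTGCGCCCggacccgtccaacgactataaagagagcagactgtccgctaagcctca
Mt2A: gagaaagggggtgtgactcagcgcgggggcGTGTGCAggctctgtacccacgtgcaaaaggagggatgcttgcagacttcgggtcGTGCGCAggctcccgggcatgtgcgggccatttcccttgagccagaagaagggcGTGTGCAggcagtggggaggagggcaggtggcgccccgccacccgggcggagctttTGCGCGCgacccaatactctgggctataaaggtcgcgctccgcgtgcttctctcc
The core occurred 6 times in the Mt1 window, 5 on the gene's strand and 1 on the other, and 4 times in the Mt2A window, 1 and 3. At least 1 match stood in 6883 of 33469 RefSeq promoters of that length (20.6%), at least 6 in 0.0269% and at least 4 in 0.266%. A match of letters does not show binding, and the arrays did not measure it.

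**Figure D3:**
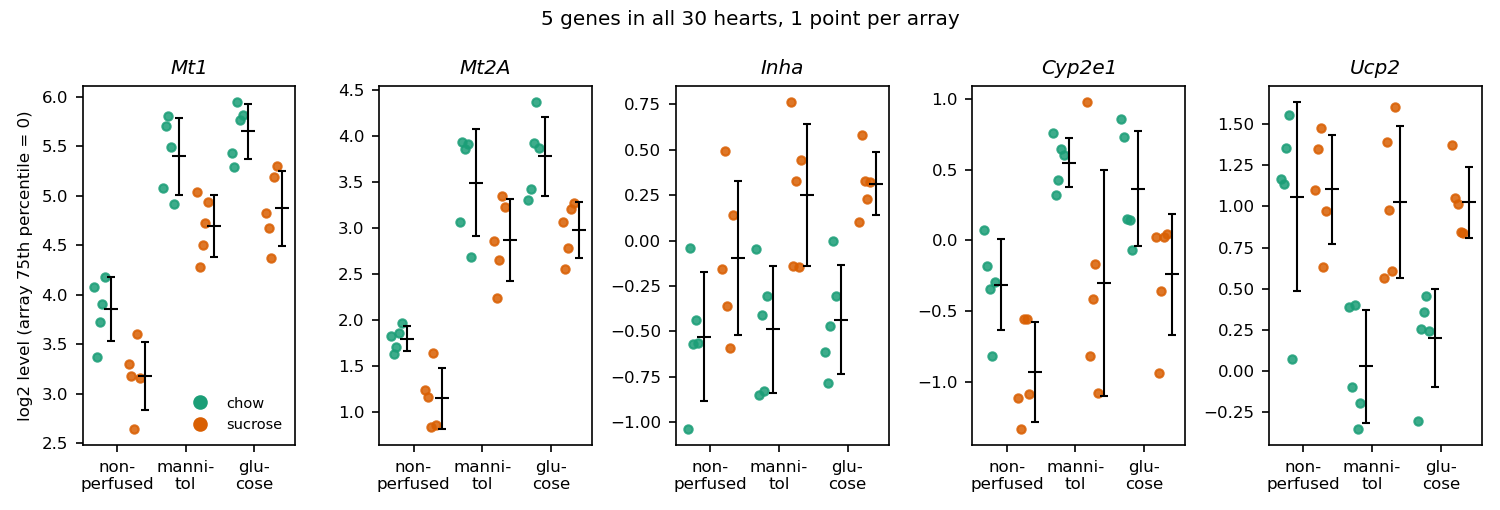
Log2 level (vertical axis, array 75th percentile = 0) of Mt1, Mt2A, Inha, Cyp2e1 and Ucp2 in the 6 groups, with 1 point per array, 5 arrays a group, and the mean with SD as a bar beside them. Chow arrays are green and sucrose arrays orange. The means of Mt1 and Mt2A are lower in the sucrose group in every state, while the mean of Ucp2 is higher by 0.82 with glucose, 1.0 with mannitol and 0.05 without perfusion.

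Across the series, 10 genes had an unadjusted p under 0.05 with the same sign in all 3 states, 5 of them lower. The 6 with a symbol were Mt1, Mt2A, Cyp2e1, Inha, Bok and Glod5, the last 2 named after their values were seen. Cyp2e1, a cytochrome P450 that ketones and fasting induce, ran from -0.07 to 0.86 in chow and from -0.94 to 0.05 in sucrose hearts after glucose, and the groups overlapped. Its difference was -0.61 (unadjusted p = 0.0384), next to -0.85 with mannitol and -0.62 without perfusion. Inha, the alpha subunit of inhibin, read -0.61, -0.79, -0.47, 0.00 and -0.31 in chow and 0.10, 0.58, 0.33, 0.23 and 0.32 in sucrose hearts. All sucrose arrays were above all chow arrays, by 0.75 (95% interval 0.32 to 1.18, 1.68-fold, unadjusted p = 0.0014). The difference was 0.74 with mannitol and 0.44 without perfusion. Bok, a pro-apoptotic BCL2 relative, was at 0.39, 0.27 and 0.47 in the same order, though in the glucose hearts it was 0.05 with array column as a covariate and 0.15 by a second probe.

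Over all genes, the diet comparisons shared a minority of their genes, though a larger part than the share over all genes. The animals were separate, but the comparisons used the same estimate of each gene's spread. A gene with a low estimate can fall under 0.05 in more than 1 of them. An overlap above the share over all genes therefore does not by itself show a shared diet difference. With mannitol 1455 genes (7.94%) had an unadjusted p under 0.05 and 1 (0.00545%), a probe without a gene symbol, passed adjustment. Without perfusion it was 612 genes (3.34%) and 0 (0%). The glucose and mannitol sets shared 97 genes, 64 of them with the same sign. These were 12.1% of the glucose set, against 7.94% of all genes, and 6.67% of the mannitol set, against 4.39% of all genes. The glucose and non-perfused sets shared 49, 44 of them with the same sign. These were 6.09% of the glucose set, against 3.34% of all genes, and 8.01% of the non-perfused set, against 4.39% of all genes. Of all genes, 54.0% and 55.8% had the same sign as in the glucose hearts, and across 18333 genes, which are not independent, the differences correlated at 0.09 and 0.16. No gene passed the interaction test of diet with glucose against mannitol (0 of 18333, 0%, lowest limma adjusted p 0.2388, 918 genes at an unadjusted p under 0.05) or against no perfusion (0, 0%, lowest 0.9996, 481 genes).

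The genes of smallest p with a symbol were a mixed set. Katnal1, a relative of the microtubule-severing enzyme katanin, had the smallest, with values from -0.43 to 0.41 in chow and from -1.0 to -0.56 in sucrose hearts. The groups did not overlap, and the difference was -0.84 (95% interval -1.24 to -0.44, 1.79-fold, unadjusted p = 0.00019, limma adjusted p = 0.5741). It was -0.25 with mannitol and -0.02 without perfusion. Hdac8, a histone deacetylase, was at 0.76 (unadjusted p = 0.00021) without overlap, but only 3 of 5 chow arrays were well above background, and the difference was 0.22 after normexp correction. Plaat1, a phospholipase and acyltransferase, was at 0.35 without overlap, and its second probe at -0.12. Nmrk1, a kinase of the NAD precursor nicotinamide riboside, was at -0.40 without overlap, and its second probe at -0.05. Arid3b, a DNA-binding factor, had the largest measured difference of these, -1.94, yet the chow arrays ran from -5.36 to -1.27 and it was above background on 4 chow and 2 sucrose arrays. Rbm48, Ska2 and Cog2 did not overlap either, at 0.48, 0.41 and 0.29, while a second probe gave 0.11 for Ska2 and -0.01 for Cog2. Rasl10a, Gart, Gemin6 and Paqr3 were at 0.37, 0.30, 0.30 and -0.21 with overlapping arrays.

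Defb1, a beta-defensin of epithelia, and Aqp5, a water channel of secretory glands, lay near background. Both were well above it on 2 of the 5 chow arrays and on 0 sucrose arrays, so only an approximate fold can be given. It takes the chow mean against the lowest signal well above background on each sucrose array, or the probe's own where that was higher. The chow mean includes chow arrays not well above background, so the fold is not a strict lower bound. By this measure Defb1 was 1.90-fold higher in chow (measured means -5.04 and -6.62, unadjusted p = 0.00059, limma adjusted p = 0.8503). Aqp5 was 1.73-fold higher (measured means -5.15 and -6.36, unadjusted p = 0.00021, limma adjusted p = 0.5741). These folds hold for the scanner's processed signal only. After normexp background correction the measured differences were -0.49 for Defb1 and -0.33 for Aqp5 (limma unadjusted p = 0.0512). The difference of Defb1 was -0.74 with array column as a covariate (limma unadjusted p = 0.192), and that of Aqp5 was -0.87 after quantile normalization (limma unadjusted p = 0.1113). The measured diet difference of Defb1 was -1.61 without perfusion and -0.05 with mannitol. Mesothelial and epicardial markers, the list that holds Defb1, were split, 5 of 10 tested below 0, with summed levels from 2.20 to 5.78 in chow and from 2.37 to 4.87 in sucrose hearts. Their part in the result was not tested.

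**Figure D4:**
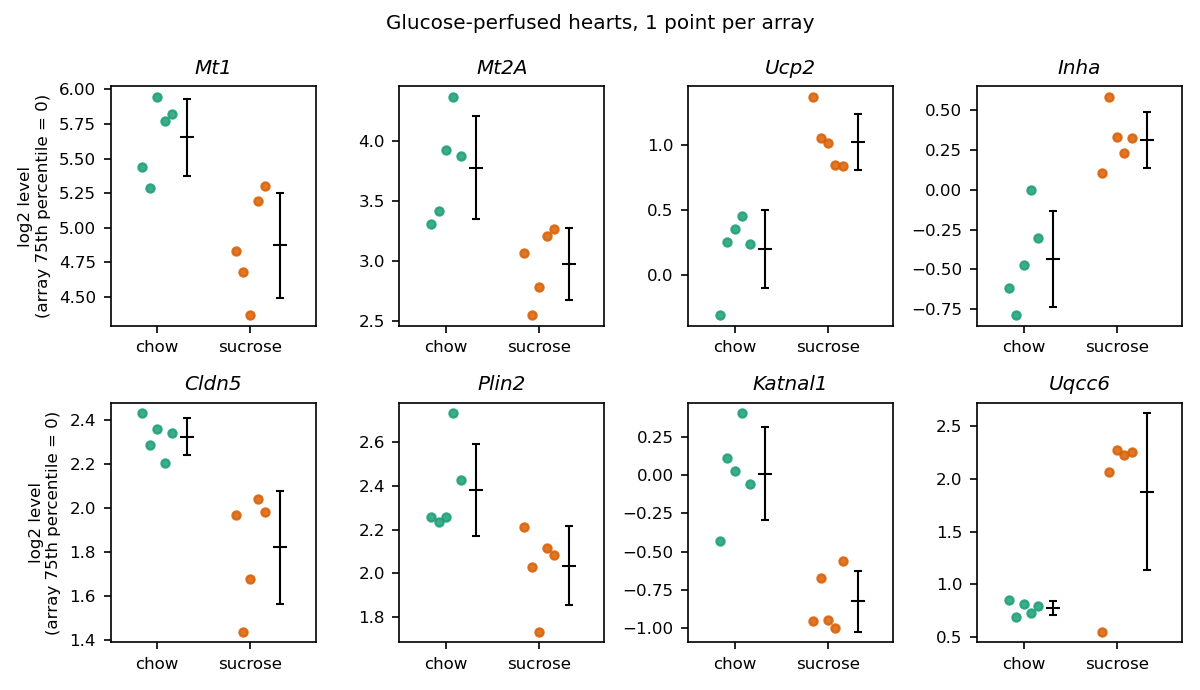
Log2 level (vertical axis, array 75th percentile = 0) of 8 genes on each array of the glucose-perfused chow and sucrose groups, 5 points a group, with the group mean and SD as a bar beside them. For Ucp2, Inha, Mt2A, Cldn5, Plin2 and Katnal1 the groups do not overlap; for Mt1 the closest values of both groups touch, and Uqcc6 splits into arrays below 1 and above 2.

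Cldn5, a tight junction protein of endothelium, read 2.43, 2.29, 2.36, 2.21 and 2.34 in chow and 1.97, 1.44, 1.68, 2.04 and 1.98 in sucrose hearts. The chow arrays were tightly grouped and all above the sucrose arrays, and the difference was -0.50 (95% interval -0.77 to -0.24, unadjusted p = 0.00065, limma adjusted p = 0.8503). Diet differences of -0.06 with mannitol and 0.12 without perfusion were measured in the other hearts, and the interaction against no perfusion was -0.62 (unadjusted p = 0.0023, limma adjusted p = 0.9996). Other endothelial genes differed less: 10 of 13 tested markers were below 0, with a median of -0.13, and Kdr, the main VEGF receptor, was at -0.18 (-0.39 to 0.04). Their summed level ran from 47.6 to 61.3 in chow and from 44.9 to 56.9 in sucrose hearts, which overlap. The part of endothelial RNA content in the Cldn5 difference was not tested.

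Of the pathway lists, immediate-early genes had the most negative median. All 40 listed genes were tested, 37 were below 0 (92.5% against 48.2% of all genes) and the median was -0.25. At an unadjusted p under 0.05 there were 6, all lower: Gadd45b, Dusp5, Csrnp1, Arc, Egr4 and Dusp2. The share over all genes was 4.39%, with 1.93% lower. Only Dusp5, a nuclear phosphatase of ERK, had arrays that did not overlap, from 2.08 to 2.79 in chow and from 1.55 to 2.04 in sucrose hearts, a difference of -0.60 (unadjusted p = 0.0288). The list's mean deviation from the chow mean was -0.16, -0.03, 0.04, 0.18 and -0.04 on the chow arrays and -0.03, -0.50, -0.24, -0.07 and -0.57 on the sucrose arrays. Sucrose replicates 2 and 5 were low and replicates 1 and 4 lay among the chow arrays, so the groups overlapped, and within the 4 slides the list differed by 0.02, -0.28, -0.54 and -0.42. Single members differed in which sucrose arrays were low. Fos was between 3.52 and 3.62 on every chow array and at 3.79, 2.88, 3.60, 3.52 and 2.46 on the sucrose arrays, a difference of -0.31 (-1.70 to 1.07). Nr4a3, an orphan nuclear receptor, was at 2.02, 1.95, 0.62, 2.06 and 0.30 in sucrose hearts against 1.82 to 2.57 in chow. Atf3 differed by -0.21 (-1.02 to 0.61). The list's median was -0.04 with mannitol and -0.09 without perfusion.

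Stress and hormone responses lay on the same side. Of 21 tested glucocorticoid-responsive genes, 15 were below 0 (71.4%) with a median of -0.17, and their mean deviation ran from -0.07 to 0.09 on the chow arrays and from -0.39 to -0.10 on the sucrose arrays, without overlap. Within the 4 slides it was -0.17, -0.18, -0.32 and -0.48. The summed level of the list did overlap, from 158.1 to 230.7 in chow and from 138 to 162 in sucrose hearts. So did the median deviation over its members, at -0.08 in chow replicate 2 and -0.07 in sucrose replicate 1. The list shares Pdk4 and Angptl4 with the fatty acid genes and Mt1 and Mt2A with the antioxidant genes, so these groups are not separate evidence. Sgk1, a kinase induced by corticosteroids, ran from 0.50 to 1.00 in chow and from -0.04 to 0.56 in sucrose hearts, a difference of -0.47 (unadjusted p = 0.0087) next to -0.01 with mannitol and -0.01 without perfusion. Of 26 tested NRF2 and antioxidant genes 22 were below 0 with a median of -0.07. The list's median was 0.02 in the authors' deposited values, where the median over all genes was 0.09. Srxn1, which repairs oxidized peroxiredoxins, was at -0.59 (unadjusted p = 0.0195). Of 23 heat shock genes 16 were below 0 with a median of -0.12, and Hspa8, at -0.18, turned to 0.05 after normexp correction and to 0.06 in the authors' values. Gdf15, a stress-induced cytokine, ran from -0.16 to 0.48 in chow and from -1.16 to 0.10 in sucrose hearts, a difference of -0.77 (unadjusted p = 0.0345). Cebpb and Hspa5 were at -0.33 and -0.27.

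**Figure D5:**
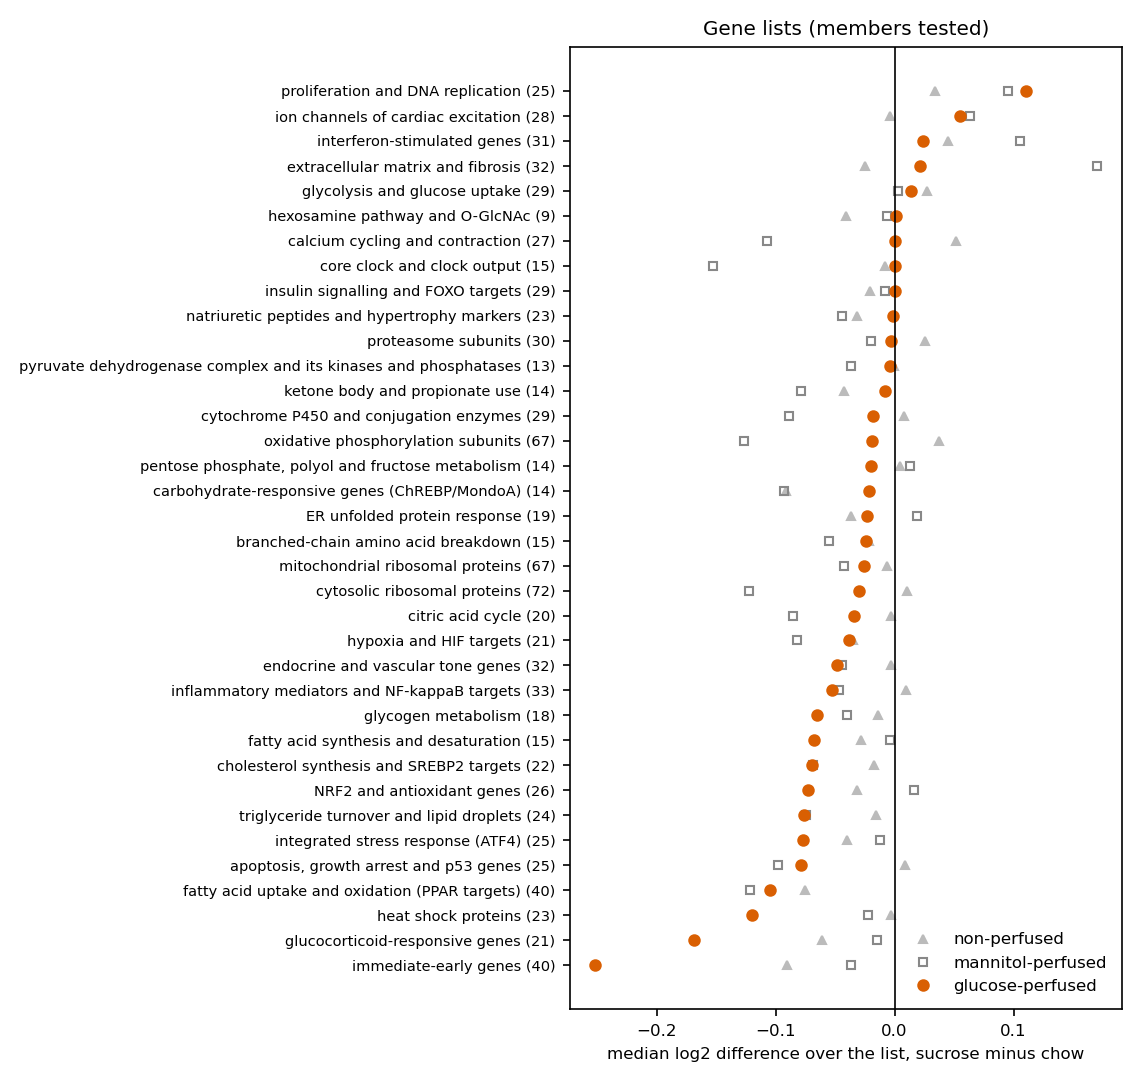
Median log2 difference, sucrose minus chow (horizontal axis), over the tested members of 36 pathway lists, whose number is given in brackets, in glucose-perfused (orange circles), mannitol-perfused (open squares) and non-perfused hearts (grey triangles). In the glucose-perfused hearts immediate-early genes lie lowest at -0.25, fatty acid uptake and oxidation lies at -0.10 and proliferation and DNA replication highest at 0.11.

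Genes of proliferation and DNA replication lay on the other side, 21 of 25 tested above 0 with a median of 0.11. Rrm1, a subunit of the enzyme that makes deoxynucleotides, was at 0.64 (unadjusted p = 0.0125) and was above background on 2 chow and 3 sucrose arrays. After normexp correction it was at 0.05. Bub1, a mitotic checkpoint kinase, was at 0.35, and at -0.02 as the mean of all its probes. Genes of the energy and protein machinery had medians near 0. The median was -0.02 over 67 subunits of oxidative phosphorylation and -0.03 over 72 cytosolic ribosomal proteins. It was -0.03 over 20 genes of the citric acid cycle and 0.00 over 30 proteasome subunits. In the same order 1, 0, 1 and 1 genes had an unadjusted p under 0.05, against 4.39% of all genes. The extracellular matrix genes had a median of 0.02 over 32 members in these hearts and 0.17 with mannitol.

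Markers of load and of the contractile apparatus gave no call. Nppb, the B-type natriuretic peptide, differed by -0.32 (-1.0 to 0.36), and by -1.05 with array column as a covariate. Nppa ran from -0.38 to 2.81 in chow and from 1.42 to 1.80 in sucrose hearts, a difference of 0.36 (-1.24 to 1.96). Myh6, the adult fast myosin heavy chain, was at -0.05 (-0.42 to 0.31) and Myh7, the slow chain, at -0.27 (-0.54 to -0.01, unadjusted p = 0.0464). The median over 23 hypertrophy markers was 0.00. Atrial genes varied widely between arrays. Sln, a regulator of the calcium pump in atria, read -3.95, -2.49, -1.67, -1.1 and -0.79 in chow and 2.41, -1.54, 1.1, -2.16 and -1.24 in sucrose hearts, and sucrose replicates 1 and 3 stood above the rest. Myl7, an atrial myosin light chain named after its value was seen, was at 1.80 in sucrose replicate 4 and at -0.65 or below on the other 9 arrays. Atrial and conduction markers had a median of 0.23 with 7 of 12 above 0, their summed level ran from 265.5 to 309.0 in chow and from 269.4 to 315.1 in sucrose hearts, and Bmp10 was above background on 0 of 10 arrays.

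Inflammatory genes and markers of blood and immune cells were variable. Il6 was at -0.52 (-1.16 to 0.12), above background on 5 chow and 3 sucrose arrays. Cxcl1, a neutrophil chemokine, was at 0.46 (-0.35 to 1.27), with sucrose replicate 1 at 4.27 and the other 9 arrays between 1.16 and 2.43. Of 33 inflammatory genes 19 were below 0. Macrophage markers had a median of 0.05, T, B and NK cell markers -0.01, fibroblast markers 0.06 and smooth muscle and pericyte markers 0.08. Red cell and globin genes had a median of -0.50 with 7 of 8 below 0, and their summed level ran from 7.83 to 26.3 in chow and from 6.89 to 12.4 in sucrose hearts. The highest chow level was that of replicate 4, and the other chow arrays lay between 7.83 and 8.73. Without that array the median was -0.14, and within the 4 slides the list differed by -0.18, 0.37, 0.10 and -2.47. MHC class II genes were below 0 in 9 of 9 with a median of -0.09. Their median was 0.03 in the authors' values, where the median over all genes was 0.09. Their summed levels overlapped, from 33.7 to 44.5 in chow and from 32.1 to 47.4 in sucrose hearts. Neutrophil markers were below 0 in 5 of 6 with a median of -0.20, or -0.04 without chow replicate 4 and 0.09 in the authors' values. Part of this list lay near background. S100a8 was above background on 0 of the 10 arrays, S100a9 on 1, Csf3r on 6, Cxcr2 on 7, Camp on 9 and Lcn2 on all 10. Clock genes differed more between hearts than between diets. Dbp, an output gene of the clock, read 3.42, 4.77, 3.54, 5.36 and 2.87 in chow and 4.75, 4.58, 4.74, 5.31 and 3.92 in sucrose hearts, a difference of 0.67 (-0.46 to 1.80). Bmal1, an activator of the core clock that was named after its values were seen, read -0.03, -3.99, -0.48, -3.87 and 0.23 in chow and -2.63, -4.12, -1.22, -3.67 and -1.02 in sucrose hearts. Bmal1 differed by -0.90 (limma unadjusted p = 0.2835), and a second probe gave -1.63 (limma unadjusted p = 0.0441). In chow, the 2 arrays of highest Dbp were those of lowest Bmal1. In sucrose hearts they were not: replicate 2 had the lowest Bmal1, -4.12, and its Dbp of 4.58 was below that of replicates 1, 3 and 4.

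Uqcc6, an assembly factor of respiratory complex III, also named after its values were seen, took one of 2 levels on each array. It was at 0.85, 0.69, 0.81, 0.73 and 0.79 in chow and at 0.55, 2.07, 2.28, 2.23 and 2.26 in sucrose hearts after glucose. Thus 4 of 5 sucrose hearts and 0 of 5 chow hearts were at the upper level, and a second probe gave the same difference, 1.12 against 1.1 (unadjusted p = 0.0027, limma adjusted p = 0.9994). With mannitol the upper level stood on 2 chow arrays (2.23 and 2.03) and 3 sucrose arrays (2.12, 2.21 and 2.15), and without perfusion all 10 arrays were between 0.68 and 1.07.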

How the data were processed

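The deposited scanner tables hold, per the file headers, an intensity for each spot, background-subtracted and detrended within the array by Agilent Feature Extraction 11.0.1.1 (10.3 per the submitters' processing notes), with no scaling between arrays. The authors' deposited series table holds log2 values, which followed the log2 of the background-subtracted signal within each array (smallest correlation 0.9985), with array medians of 7.23 to 7.24. How the authors scaled between arrays is not given in the sources used here. Of 62976 spots, 58717 were not controls. Spots marked as outliers were dropped, spots of a probe averaged, log2 taken and the array's 75th percentile subtracted. Of 30367 probes, 18355 were named through their transcript accession in RefSeq (GRCr8). The brightest probe stood for a gene. Of 26785 genes, 18333 (11304 with a symbol) passed the filter, which asked for a signal well above background on 4 or more of the 5 arrays in any of the 6 groups, and 8452 were left out. No probe was saturated on the glucose arrays.

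All 30 arrays were fitted together with limma 3.58.1 in R 4.3.3, with 1 mean per group (median total degrees of freedom 26.3), with Benjamini-Hochberg adjustment over all genes and a threshold of 0.05. Intervals are 95%. The procedure was tested on simulated data. Genes named were those called, or where fewer than 10 were called in a direction the 10 of smallest p, up to 3 members of smallest p in each of 53 lists, genes set by name, and the 3 of smallest p in each interaction. The members and lists were chosen with earlier results of these data known. Alternatives covered normalization, background correction, filters, probe choice, slide and replicate blocks, weights, array column and leaving out single arrays; normexp (offset 50) used the median foreground signal. Results for 2 genes are not reported here.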

Additional observations from a re-analysis of the deposited data

Results flagged for a closer look

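In 192 checks of a gene within a glucose-perfused group of 5 arrays, 9 arrays stood apart from the other 4, with a gap to the nearest array above 0.71 of the group's range. Chance alone gives about 1 in 20.

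Cxcl1 was at 4.27 in sucrose replicate 1 and at 2.06 on the next array, a gap of 0.73 of the range. Uqcc6 was at 0.55 on the same array and at 2.07 on the next, a gap of 0.876. Ucp2 was at -0.31 in chow replicate 1 against 0.24 on the next (0.718), and Slc2a1 on that array was at 0.40 against 1.08 (0.736).

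The other arrays were also the lowest of their group. Txnip was at 3.46 in sucrose replicate 3 against 4.18 (0.766), Rasl10a at -1.17 in sucrose replicate 5 against -0.90 (0.773), Rbm48 at -2.67 in chow replicate 4 against -2.01 (0.806), Gadd45b at 3.70 in chow replicate 2 against 3.99 (0.822) and Cpt1a at 0.02 in chow replicate 5 against 0.23 (0.834). The causes were not tested.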

How the results depend on the processing

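The count of 0 genes for sucrose against chow after glucose held under every alternative run except array weights, where 3 were called: Aqp5 (adjusted p = 0.04507) and 2 without a symbol. Leaving out each glucose array in turn gave 0 throughout. At an unadjusted p under 0.05 the count ran from 295 (authors' values) to 1342 (slide as a fixed block; 1180 as a random block) against 804, with 1255 under array weights. The split of 451 higher and 353 lower became 255 and 40 in the authors' values and 269 and 434 after normexp correction. It was 432 and 449 without the filter and 469 and 534 with array column. In the authors' values the median difference over all genes was 0.09. List medians moved by unlike amounts there, from -0.10 to -0.06 for fatty acid uptake and oxidation and from -0.004 to 0.17 for the pyruvate dehydrogenase list. The replicate block gave 0 called and 790 at an unadjusted p under 0.05; arrays of both diets with the same number deviated together at a mean correlation of -0.12 (0 of 5 over 0.1), so the numbers do not pair the samples.

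In the other comparisons, the mannitol count of 1 became 0 after normexp, in the authors' values and with the replicate block, 2 with array column, and 1 to 2 leaving out single arrays. With array column as a covariate the non-perfused count was 11 and the interactions gave 2 and 7. The average over 3 states gave 1 gene, against 0 with quantile normalization, the authors' values, no filter, the replicate block and array column, 8 after normexp, 6 with a filter on all 30 arrays, 7 with slide as a fixed or random block, 4 with trend and robust variance, 3 with array weights and 3 without the array alone on its slide, and from 0 to 2 leaving out single glucose arrays. Among genes with an unadjusted p under 0.05, the direction turned for Hspa8 (0.0487 after normexp, 0.058 in the authors' values), for Bub1 (-0.0158 as the mean of its probes), and so did the median of the NRF2 list (0.018 in the authors' values). Of 96 genes compared across settings, 17 took the other sign under at least 1 setting, among them Txnip, Cpt1a, Hk2, Fasn, Lpl and Myh6, and 29 list medians did so in the authors' values, among them cholesterol synthesis (0.03) and the integrated stress response (0.02). The causes were not tested. Genes near background, such as Hdac8 and Arid3b, are limited by their signal.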
